A study of Mus musculus with 44 samples.

Results

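Cholesterol and fatty acid synthesis was followed through 31 genes of enzymes and regulators. These were picked by symbol from textbook pathway lists, with earlier results of these data known. They are 31 of the 24940 genes listed in each of 4 tables of RNA-seq read counts, and all 31 passed the filter on low counts in every table. By role they are 8 genes of the mevalonate steps and 12 genes of the steps that make squalene and turn it into cholesterol. The others are 3 genes of sterol sensing and transport and 8 genes of fatty acid synthesis, elongation, desaturation and activation. All libraries were made from bone marrow-derived macrophages (BMDMs) of C57Bl6 mice, which are grown from marrow with M-CSF. The study asked how NCoR, a nuclear receptor co-repressor that partners the deacetylase HDAC3, takes part in gene induction by inflammatory signals.

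In the NCoR table, cells of NCoR flox/flox mice (WT) and of NCoR flox/flox mice with LysMCre (NKO) received vehicle (Veh), KLA, PolyIC, IFNb or IL4 for 6 h, or RANKL for 12 h. KLA is Kdo2 lipid A, which activates the receptor TLR4; PolyIC is a double-stranded RNA analog that activates TLR3. In the RGFP966 table, Wild type cells received vehicle, KLA, or KLA with the HDAC3 inhibitor RGFP966. In the Pgc1b table, cells of Pgc1b flox/flox mice without or with LysMCre received vehicle or KLA, PGC1β being a transcriptional coactivator. In the TBK1i table, Wild type cells received vehicle with DMSO, KLA with DMSO, or KLA plus a small-molecule blocker of TBK1, a kinase. These treatments also lasted 6 h. LysMCre is expressed from the Lyz2 locus in myeloid cells, and the floxed control cells of the NCoR and Pgc1b tables carry no Cre. Each of the 22 groups had 2 libraries. The labels do not say whether these came from separate mice, so p-values measure the spread between libraries only.

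Cholesterol is built from acetyl-CoA through mevalonate, isoprenoid units and squalene, and the same early steps feed other isoprenoids. When sterols in the endoplasmic reticulum are low, the transcription factor SREBP2, encoded by Srebf2, is released and induces most of these enzymes, whereas INSIG1 holds it back. Fatty acids are built from acetyl-CoA by acetyl-CoA carboxylase and fatty acid synthase and are then elongated and desaturated, and in macrophages several of these genes also respond to the oxysterol receptors LXR.

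Promoters are shown for 5 members of the sterol branch because Hmgcs1, Idi1, Cyp51 and Insig1 rose with KLA and Dhcr7 fell in every table. The lines below give the 250 bases before the transcription start, 5′ to 3′ on the gene's strand, from RefSeq on GRCm38.p6 (the assembly also called mm10). Capitals mark the sterol regulatory element TCACNCCAC and the CCAAT box, read on either strand, so that ATTGG is a CCAAT box on the other strand.
Hmgcs1, chr13:119690101-119690350, plus strand: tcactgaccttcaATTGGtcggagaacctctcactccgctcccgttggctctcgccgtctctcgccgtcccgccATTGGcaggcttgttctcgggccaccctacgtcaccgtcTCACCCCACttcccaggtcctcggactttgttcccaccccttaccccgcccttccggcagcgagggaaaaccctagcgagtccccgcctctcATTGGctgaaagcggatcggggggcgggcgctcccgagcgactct
Idi1, chr13:8885356-8885605, plus strand: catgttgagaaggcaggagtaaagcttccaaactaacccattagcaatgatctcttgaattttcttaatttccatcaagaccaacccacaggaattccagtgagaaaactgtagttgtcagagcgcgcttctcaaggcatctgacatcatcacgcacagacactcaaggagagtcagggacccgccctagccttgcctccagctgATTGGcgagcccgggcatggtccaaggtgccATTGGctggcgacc
Cyp51, chr5:4104698-4104947, minus strand: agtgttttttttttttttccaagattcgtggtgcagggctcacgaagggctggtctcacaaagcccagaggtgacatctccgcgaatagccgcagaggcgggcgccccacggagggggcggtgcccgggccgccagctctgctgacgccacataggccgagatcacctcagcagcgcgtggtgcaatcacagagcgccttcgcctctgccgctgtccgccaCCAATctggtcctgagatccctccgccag
Insig1, chr5:28071162-28071411, plus strand: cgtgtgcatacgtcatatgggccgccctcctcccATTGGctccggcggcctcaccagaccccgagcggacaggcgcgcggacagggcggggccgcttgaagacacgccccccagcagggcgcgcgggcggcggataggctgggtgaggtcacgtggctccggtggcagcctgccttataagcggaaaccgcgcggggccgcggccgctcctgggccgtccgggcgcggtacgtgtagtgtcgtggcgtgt
Dhcr7, chr7:143822917-143823166, plus strand: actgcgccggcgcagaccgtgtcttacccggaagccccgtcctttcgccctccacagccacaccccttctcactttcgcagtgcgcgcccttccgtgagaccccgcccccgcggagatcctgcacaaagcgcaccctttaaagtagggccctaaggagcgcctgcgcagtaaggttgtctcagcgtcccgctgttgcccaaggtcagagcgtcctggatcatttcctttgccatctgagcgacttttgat

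Of the 31 members, 26 had a promoter in this set, and Fdps, Fdft1, Sqle, Stard4 and Fads1 had none. By a check against the first transcribed bases, 22 of the 26 were in sense, whereas Hmgcs1, Lbr, Nsdhl and Sc5d did not pass it. The orientation of the printed Hmgcs1 sequence was thus not borne out by that check. Motif matches were read on either strand. The sterol regulatory element as spelled above was found in 1 of the 26, Hmgcs1, and in 1.04% of 27025 genes with a promoter. A CCAAT box was found in 19 of the 26 (73.1%), against 34.5% of all genes. The GC box, GGGCGG, was found in 20 of the 26 (76.9%), against 32.9% of all genes. The printed Dhcr7 promoter held neither the sterol element nor a CCAAT box. Matches are descriptions of these letters and not of binding.

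The libraries held 8323493 to 16783155 counts in genes. Levels are given in counts per 1000000 counts in genes (CPM), scaled within each table by the trimmed mean of M-values (TMM). Ncor1 was 133 to 215 CPM in WT libraries and 49.4 to 65.0 CPM in NKO libraries, as labelled. Ppargc1b was not lower in the Pgc1b flox/flox, LysMCre libraries (3.41 to 3.75 CPM with vehicle, 8.74 to 10.3 CPM with KLA) than in their controls (2.88 to 4.38 and 6.78 to 7.81 CPM), so the counts over the whole gene did not check that deletion. The paper shows an immunoblot of PGC1β protein for both genotypes. Lyz2, the locus of LysMCre, had means of 8216 CPM in Pgc1b flox/flox and 4410 CPM in Pgc1b flox/flox, LysMCre cells with vehicle. With KLA these means were 8171 and 4463 CPM. Macrophage markers summed to 9547 to 24020 CPM in every library. Neutrophil markers summed to 636 to 995 CPM in the RANKL libraries and to at most 22.1 CPM elsewhere, and the column names of the RANKL libraries mention osteoclasts. Names carry date stamps. The NKO_KLA libraries are dated 1401 days before WT_KLA, which is dated 115 days before WT_Veh, and the RANKL libraries 536 days before WT_Veh. The 2 NKO_KLA libraries and the 8 Pgc1b libraries held 578 to 3050 Y-linked counts each, and the other libraries 0 to 5. In NKO_KLA against WT_KLA, genotype, date and sex therefore cannot be told apart.

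Within WT_Veh, levels per kilobase of transcript ordered the members over a wide range. Idi1, an isopentenyl diphosphate isomerase, was lowest at 0.228 ± 0.118 CPM per kb (SD, n = 2), from 6 and 13 counts. The 95% exact Poisson intervals of these counts were 2.20 to 13.1 and 6.92 to 22.2, which cover counting error only. Acaca (acetyl-CoA carboxylase) followed at 0.718 ± 0.213 CPM per kb and Elovl6 (a fatty acid elongase) at 0.785 ± 0.0297 CPM per kb, which did not differ beyond their spread. At the upper end were Fads1 at 26.1 ± 2.01, Elovl5 at 27.0 ± 1.14 and Msmo1 at 28.2 ± 2.16 CPM per kb, again within their spread, then Acly, which makes cytosolic acetyl-CoA, at 32.1 ± 2.32 CPM per kb. Fdft1 (squalene synthase) was listed highest at 98.4 ± 5.60 CPM per kb. Its exons overlap those of Ctsb by 774 bp on the opposite strand. Ctsb, the lysosomal protease cathepsin B, was at 17760 CPM in WT_Veh and 11538 CPM in WT_KLA. Over the 22 group means, log2 CPM of Fdft1 and of Ctsb had a Pearson r of 0.80, and Fdft1 counts were 10.5 to 22.8 per 1000 Ctsb counts. The study's methods describe strand-specific counting, which would leave reads of Ctsb out of Fdft1, but the headers name no strand option. Whether strand was used could not be read from the counts, so the part of Ctsb in the Fdft1 values was not tested. The same holds for smaller overlaps on the opposite strand, of Lss (381 bp), Ggps1 (257 bp), Cyp51 (166 bp) and Elovl6 (34 bp), with genes of the table. Acat2 shares 97.7% identity over 1477 bp with Acat3, Tm7sf2 overlaps Vps51 by 532 bp and Acsl3 overlaps Utp14b by 244 bp on the same strand, so the values of Acat2, Tm7sf2 and Acsl3 are uncertain however strand was used.

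**Figure D1:**
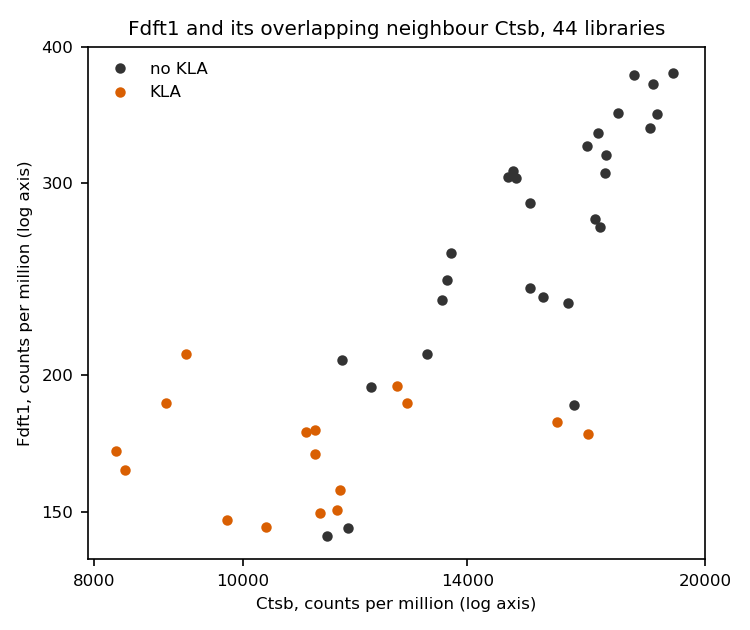
CPM of Fdft1 against those of the overlapping gene Ctsb in the 44 libraries, both axes logarithmic, orange points for libraries with KLA. Fdft1 ran from 143 to 378 CPM and tended to be high where Ctsb was high, which ran from 8262 to 19044 CPM.

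Which members responded to TLR4 was asked by comparing WT_KLA with WT_Veh. WT_KLA is dated 115 days before WT_Veh, so KLA and date cannot be told apart in this comparison. A call required an adjusted p below 0.05 (edgeR quasi-likelihood test, Benjamini-Hochberg over 13407 genes) and a fold change above 1.5. By this rule 19 of 31 members rose, against 25.4% of all genes, and 6 of 31 fell, against 32.3%. The median log2 fold change of the members was 0.86, and that of all genes -0.14. With libraries scaled to their total gene counts, the median of all genes was -0.87, and 12 members were called higher and 10 lower. Directions in the KLA and PolyIC comparisons are therefore relative to the other genes. Of 8 proliferation markers, 5 were lower and 2 higher with KLA (median -1.12). Summed means of stromal markers were 96.8 CPM in WT_Veh and 18.5 CPM in WT_KLA, and those of osteoclast markers 59.8 and 91.0 CPM. The part of these markers in the members' changes was not tested.

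Of the 8 genes of the mevalonate steps, 6 were called higher and 0 lower. Hmgcs1, the HMG-CoA synthase, was at 51.7 and 69.0 CPM in the 2 WT_Veh libraries and 282 and 271 CPM in the 2 WT_KLA libraries. The groups were far apart, with a log2 fold change of 2.20 ± 0.12 (SE; adjusted p = 1.73e-10, edgeR). Idi1 was at 0.413 and 0.889 CPM with vehicle and 5.73 and 4.83 CPM with KLA, a log2 fold change of 3.00 ± 0.40, the largest of the members in this comparison but on the fewest counts. Fdps, which makes farnesyl diphosphate, rose by 2.12 ± 0.12 on the log2 scale, and the other risers were Acat2 (1.40), Pmvk (1.31) and Mvd (0.93). Mvk (mevalonate kinase) and Ggps1, which makes geranylgeranyl diphosphate, did not pass, with log2 fold changes of -0.19 ± 0.17 and 0.44 ± 0.12.

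Of the 12 sterol genes, 7 rose and 3 fell. Cyp51, the lanosterol demethylase, was at 21.9 and 30.4 CPM with vehicle and 158 and 146 CPM with KLA, with a log2 fold change of 2.54 ± 0.12 (adjusted p = 1.73e-13, edgeR). Sqle (squalene epoxidase) went from 20.4 and 25.5 to 58.6 and 58.5 CPM, a log2 fold change of 1.35 ± 0.11. In both, no KLA library overlapped a vehicle library. Hsd17b7 and Sc5d, which act on later sterol intermediates, rose by 2.49 ± 0.15 and 1.91 ± 0.09 on the log2 scale. The calls of Lss (0.68) and Nsdhl (0.65) turned to -0.0497 and -0.0786 with total gene counts. Dhcr7, which reduces the last double bond on the way to cholesterol, went the other way, from 33.9 and 34.8 to 5.90 and 5.00 CPM, a log2 fold change of -2.65 ± 0.15 (adjusted p = 3.14e-24, edgeR). Tm7sf2 fell by 1.03 and Fdft1 by 1.24 on the log2 scale, with the overlaps given above. Msmo1 rose (1.55 ± 0.07), and Ebp (-0.55 ± 0.11) and Lbr, a sterol reductase (0.11 ± 0.11), did not pass.

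All 3 genes of sterol sensing and transport rose. Insig1 went from 35.8 and 48.6 to 149 and 154 CPM (1.84 ± 0.12 in log2 fold change). Srebf2 went from 100.4 and 132 to 335 and 350.0 CPM (1.56 ± 0.11). Stard4, a cytosolic sterol carrier, went from 20.4 and 23.6 to 38.3 and 41.3 CPM (0.86 ± 0.10). None of the 3 overlapped between groups. In all 3 the second WT_Veh library was above the first.

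The 8 fatty acid genes split, with 3 higher and 3 lower. Fasn (fatty acid synthase) was at 49.0 and 61.9 CPM with vehicle and 103 and 96.0 CPM with KLA, a log2 fold change of 0.84 ± 0.14. Acaca went from 5.09 and 7.80 to 12.9 and 13.7 CPM, a log2 fold change of 1.04 ± 0.20. Both thus rose, as did Fads2. The other desaturase, Fads1, fell from 94.7 and 84.8 to 16.4 and 14.7 CPM, a log2 fold change of -2.53 ± 0.11 (adjusted p = 5.82e-27, edgeR). Elovl6 was at 4.54 and 4.79 CPM with vehicle and 2.46 and 4.83 CPM with KLA, which overlapped, and it did not pass (-0.36 ± 0.29). Elovl5, another elongase, and Acsl3, an acyl-CoA synthetase, also fell, with log2 fold changes of -1.0 ± 0.09 and -0.84 ± 0.19. Acly did not pass (0.35 ± 0.06).

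The same comparison was made in 3 further sets of libraries with controls of their own. Within each of these sets the vehicle and KLA libraries carry the same date. Members higher and lower were 13 and 7 of 31 in the RGFP966 table (all genes 27.9% and 32.2%). They were 9 and 8 in the Pgc1b flox/flox cells (all genes 22.8% and 25.7%) and 20 and 5 in the TBK1i table with DMSO (all genes 29.6% and 29.3%). With total gene counts the members' calls became 7 and 13, 0 and 15, and 13 and 9. Across the 4 sets, which share no library, Hmgcs1, Idi1, Fdps, Cyp51, Hsd17b7, Sc5d, Insig1 and Srebf2 were called higher each time. With total gene counts, Cyp51 and Sc5d turned to -0.103 and -0.0640 in the Pgc1b flox/flox cells. Dhcr7, Elovl5 and Fads1 were called lower each time, and 2 members, Mvk and Ggps1, were called in none. The share of all genes called alike in the 4 sets was not counted.

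The largest changes in the RGFP966 table were those of Idi1 (2.34), Hsd17b7 (2.26) and Cyp51 (2.18) among the higher and Fads1 (-3.49), Dhcr7 (-2.996) and Acsl3 (-1.67) among the lower members. In the Pgc1b flox/flox cells they were those of Idi1 (1.05), Hmgcs1 and Hsd17b7 (0.81), and of Fads1 (-2.76), Elovl6 (-2.66) and Dhcr7 (-2.64). In the DMSO cells they were those of Idi1 (2.85), Cyp51 (2.83) and Hsd17b7 (2.56), and of Fads1 (-2.51), Dhcr7 (-2.32) and Elovl5 (-0.98). Sizes thus differed between the sets. Hmgcs1 was at 70.7 and 70.6 CPM with vehicle and 223 and 240.2 CPM with KLA in the RGFP966 table. In the Pgc1b flox/flox cells it was at 122 and 115 CPM with vehicle and 224 and 241 CPM with KLA, and in the DMSO cells at 57.2 and 59.98 CPM with vehicle and 279 and 271 CPM with KLA. The Pgc1b flox/flox vehicle libraries were thus the highest of the 4 vehicle groups, and the log2 fold changes were 1.72 ± 0.06, 0.97 ± 0.07 and 2.23 ± 0.05. Sqle was likewise high with vehicle there, at 78.1 and 73.9 CPM with vehicle and 67.8 and 73.2 CPM with KLA in the Pgc1b flox/flox cells. It did not pass in them (-0.11 ± 0.09), against 1.32 ± 0.09 and 1.51 ± 0.08 in the RGFP966 and TBK1i tables. Fads2 was called higher in WT and DMSO cells (1.50 ± 0.28 and 1.47 ± 0.24), lower in Pgc1b flox/flox cells (-1.28 ± 0.19) and not called in the RGFP966 table (-0.18 ± 0.31). Tables were scaled and fitted separately, and differences between them were not tested. Proliferation markers were called lower in 5, 7 and 5 of 8 in these 3 sets, and their part was not tested.

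**Figure D2:**
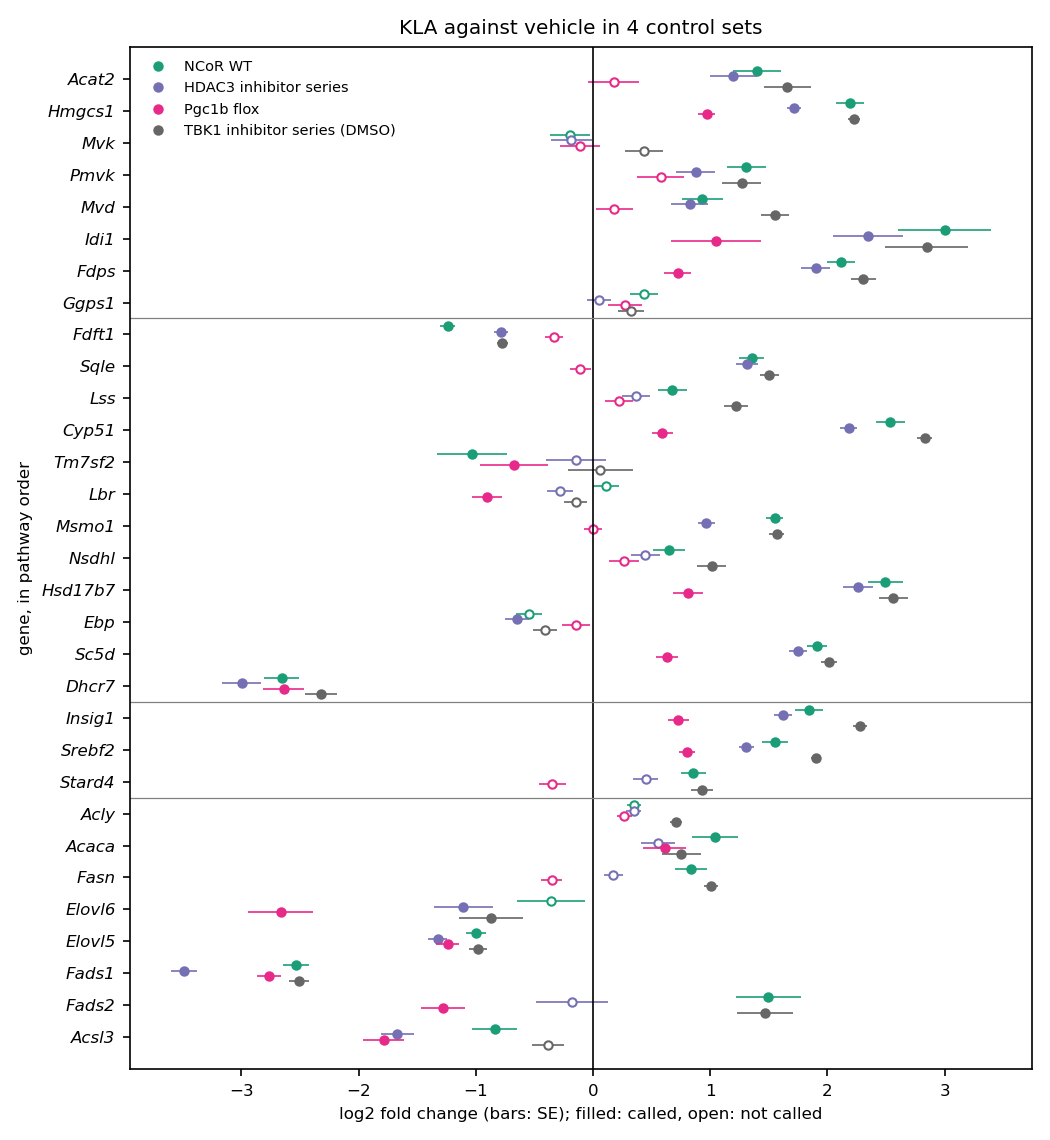
Log2 fold changes of the 31 members with KLA against vehicle in 4 sets of libraries, with SE as bars, filled points for calls and genes in pathway order. Hmgcs1, Idi1, Cyp51, Hsd17b7, Insig1 and Srebf2 lie right of 0 and Dhcr7, Elovl5 and Fads1 left of it in all 4, whereas Fads2 lies on both sides; with total gene counts Cyp51 turned to -0.103 in the Pgc1b flox/flox cells.

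How other signals compared with KLA was asked in WT cells, where all 4 comparisons share the WT_Veh libraries. RANKL is the cytokine that drives osteoclast formation. In WT_RANKL, 16 of 31 members were higher than in WT_Veh, against 24.1% of all genes, and 1 of 31 was lower (Fdft1, -1.33 ± 0.06), against 19.8%. WT_RANKL is a 12-h treatment set against a 6-h vehicle dated 536 days later. Its column names mention osteoclasts, whereas those of WT_Veh mention BMDM. Ligand, time, date and any difference in culture therefore cannot be told apart. Fads2 rose from 2.06 and 3.01 to 18.97 and 19.3 CPM (2.91 ± 0.20), and Elovl6 from 4.54 and 4.79 to 19.5 and 20.6 CPM (2.10 ± 0.18). For both, the RANKL libraries were far above vehicle, whereas the other desaturase, Fads1 (0.29 ± 0.07), and the other elongase, Elovl5 (0.06 ± 0.07), did not pass. Hsd17b7 (1.98 ± 0.14), Idi1 (1.98 ± 0.39) and Sqle (1.91 ± 0.09) rose as well, Sqle to 86.4 and 85.4 CPM. Hmgcs1 was at 92.7 and 82.7 CPM (0.54 ± 0.12) and Srebf2 at 163 and 155 CPM (0.45 ± 0.11), and neither passed. In the same comparison all 8 proliferation markers were called higher (median 2.31), as were 6 of 6 neutrophil markers (summed means 2.99 CPM in WT_Veh and 648 CPM in WT_RANKL), 5 of 5 stromal markers (96.8 and 214 CPM) and 3 of 4 tested osteoclast markers (59.8 and 91.5 CPM). Their part in the result was not tested.

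PolyIC raised 11 of 31 members, against 22.2% of all genes, and lowered 6 of 31, against 25%; with total gene counts the calls were 1 and 13. Insig1 rose to 98.6 and 108 CPM (1.29 ± 0.12), Idi1 to 1.43 and 1.56 CPM (1.19 ± 0.49) and Fdps to 25.6 and 24.8 CPM (1.06 ± 0.13). Srebf2 rose to 235 and 224 CPM (0.98 ± 0.11). Hmgcs1 passed at 0.59 ± 0.13 and Sc5d at 0.64 ± 0.10, but they turned to -0.0588 and -0.00791 with total gene counts. Fads1 fell to 21.2 and 18.9 CPM (-2.16 ± 0.10), Acsl3 fell as well (-1.92 ± 0.20) and Dhcr7 fell to 8.57 and 10.9 CPM (-1.82 ± 0.12). Without the first WT_Veh library, 11 members rather than 17 were called. Of 8 proliferation markers 6 were lower with PolyIC, and their part was not tested.

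With IFNb, 0 of 31 members were higher, against 4.09% of all genes, and 1 of 31 was lower, against 2.37%. DESeq2 also called 0 higher, and edgeR's unadjusted p was below 0.05 for 10 members in either direction. The lower member was Acat2 (-0.65 ± 0.22), uncertain for its copy Acat3, and it was not called when any 1 of the 4 libraries was left out. Hmgcs1 was at 71.2 and 77.3 CPM, Srebf2 at 158 and 142 CPM and Fads1 at 74.6 and 66.8 CPM, with log2 fold changes of 0.30 ± 0.12, 0.37 ± 0.11 and -0.34 ± 0.07. Between the ligands themselves, PolyIC was above IFNb in 8 of 31 members, against 20.5% of all genes, and below it in 4 of 31, against 21.5%. With total gene counts these counts were 0 and 12. The largest differences were Fads2 (1.03 ± 0.29), Fdps (1.00 ± 0.13) and Insig1 (0.95 ± 0.12) on the higher side and Acsl3 (-1.86 ± 0.21), Fads1 (-1.82 ± 0.10) and Dhcr7 (-1.66 ± 0.12) on the lower.

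IL4 raised 2 of 31 members, against 6.63% of all genes, and lowered 2 of 31, against 6.46%. Dhcr7 was the main one, at 83.5 and 85.4 CPM against 33.9 and 34.8 CPM with vehicle (1.30 ± 0.07; adjusted p = 9.33e-23, edgeR), and Mvd, the decarboxylase that ends the mevalonate steps, rose by 0.62 ± 0.16. Both groups of Dhcr7 values were tight and far apart, and KLA had moved this gene the other way. Stard4 was at 13.8 and 14.1 CPM (-0.66 ± 0.11), and Acsl3 changed by -1.15 ± 0.16. Hmgcs1 (57.3 and 59.9 CPM) and Cyp51 (23.2 and 23.7 CPM) overlapped their vehicle values.

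What the loss of NCoR did to these genes was asked in 6 conditions. With vehicle, 6 of 31 members were higher in NKO, against 2.4% of all genes, and 0 of 31 lower, against 3.8%. Unadjusted p was below 0.05 for 19 members in either direction, and DESeq2 called 7 higher and 0 lower. Sqle was at 20.4 and 25.5 CPM in WT and 50.0 and 55.2 CPM in NKO (1.201 ± 0.10; adjusted p = 4.33e-13, edgeR). Hmgcs1 was at 90.5 and 97.8 CPM in NKO (0.64 ± 0.12) and Acaca at 13.3 and 11.6 CPM (0.94 ± 0.17). For all 3, both NKO libraries were above both WT libraries. Mvd (1.04 ± 0.15), Dhcr7 (0.78 ± 0.08) and Hsd17b7 (0.65 ± 0.16) completed the called members. The count rested on the WT_Veh libraries, being 4 without the first and 13 without the second. In the same libraries 3 of 4 tested osteoclast markers were higher in NKO (summed means 59.8 CPM in WT and 147 CPM in NKO) and 1 of 5 stromal markers was lower (96.8 and 68.3 CPM), and their part was not tested.

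With PolyIC, IFNb and IL4 the direction was alike: 8 of 31, 9 of 31 and 11 of 31 members were higher in NKO and 0 of 31 were lower in each by edgeR. DESeq2 called 7, 9 and 11 higher and 0 lower. All genes called higher were 3.01%, 1.86% and 1.9%, and lower 2.92%, 1.94% and 2.33%. Unadjusted p was below 0.05 for 23, 22 and 21 members in either direction. Sqle was called each time, at 39.1 and 36.6 against 16.5 and 16.9 CPM with PolyIC (1.17 ± 0.13). It was at 63.4 and 61.8 against 30.4 and 29.4 CPM with IFNb (1.06 ± 0.09) and 51.5 and 55.0 against 18.7 and 17.4 CPM with IL4 (1.56 ± 0.10). In these 3 conditions and with vehicle, Hmgcs1, Sqle and Acaca were called higher each time. The 4 comparisons share no library, but all their libraries carry the same date. The labels do not say whether the ligands were given to the same cell preparations, so the 4 comparisons may not be independent. Another 19 members were above 0 in all 4 without a call in each, so that 22 were above 0 and 0 below 0 in all 4. How many of all genes kept 1 direction over these conditions was not counted. Idi1 was among the largest with PolyIC (1.09 ± 0.39), with Acaca (0.95 ± 0.18), whereas Acaca (0.93 ± 0.16) and Mvd (0.86 ± 0.15) followed Sqle with IFNb. Of 4 tested osteoclast markers 3 were higher in NKO in each of these 3 conditions, and 3, 0 and 2 of 5 stromal markers were lower, and their part was not tested. With IL4, Stard4 was at 25.7 and 26.6 CPM in NKO (0.91 ± 0.11) and Acsl3 rose by 0.86 ± 0.17.

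With RANKL, 18 of 31 members were higher in NKO, against 6.21% of all genes, and 0 of 31 lower, against 6.99%; by unadjusted p below 0.05, 26 differed in either direction, and DESeq2 called 18 higher. Hmgcs1 was at 92.7 and 82.7 CPM in WT and 193 and 245 CPM in NKO (1.32 ± 0.11; adjusted p = 2.45e-07, edgeR). Cyp51 was at 83.5 and 86.1 CPM in WT and 169 and 215 CPM in NKO (1.18 ± 0.10), and Insig1 at 59.6 and 56.5 CPM in WT and 122 and 153 CPM in NKO (1.24 ± 0.11). Both NKO libraries stood above both WT libraries in these genes, with the second NKO library the higher. Hsd17b7 rose by 1.25 ± 0.11. Fasn (129 and 133 CPM in WT, 118 and 157 CPM in NKO) and Acaca overlapped between genotypes and did not pass. The proliferation markers moved too, 7 of 8 being called lower in NKO (median -1.68). Summed means of neutrophil markers were 648 CPM in WT and 960 CPM in NKO. Those of stromal markers were 214 and 295 CPM, and those of osteoclast markers 91.5 and 108 CPM. The part of these markers in the result was not tested. Of the 22 groups, NKO_RANKL held the highest mean of 14 of the 31 members. This ranking crosses tables that were scaled separately, and the share of all genes was not counted.

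**Figure D3:**
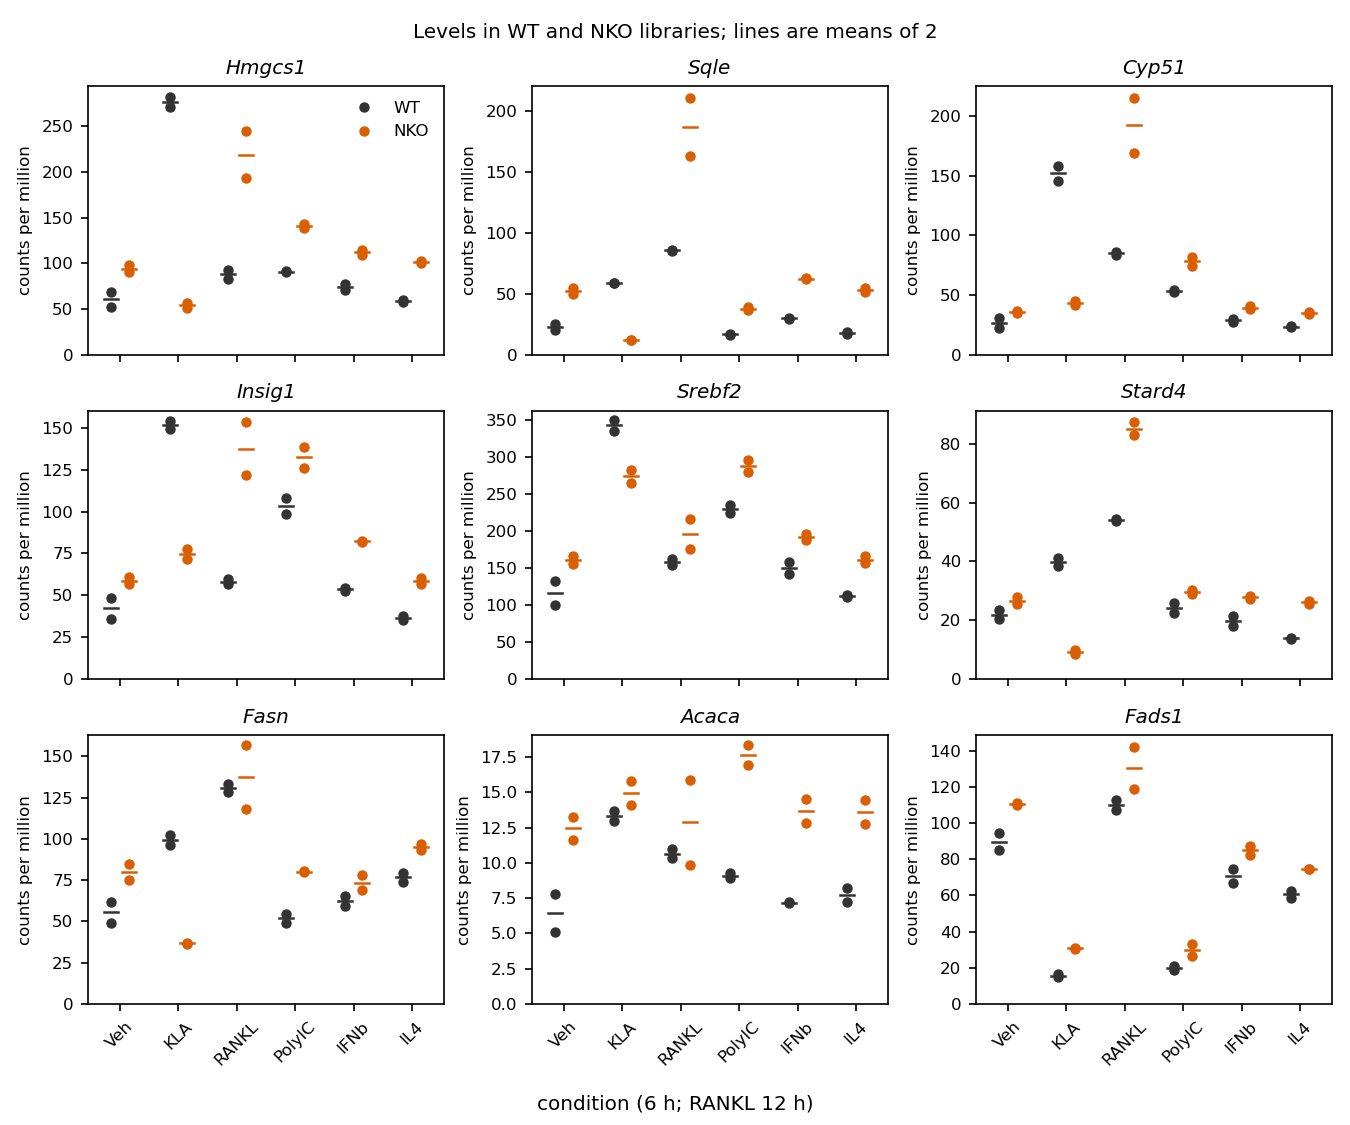
CPM of 9 members in every WT (black) and NKO (orange) library of the NCoR table by condition, with lines at the means of 2 libraries and each vertical axis starting at 0. Sqle and Hmgcs1 lie higher in NKO in every condition but KLA, where NKO libraries lie below WT.

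With KLA the direction was opposite for many members. In NKO_KLA against WT_KLA, 17 of 31 members were lower, against 19% of all genes, and 4 of 31 higher, against 21%, with a median of -1.02 against 0.07 for all genes. Hmgcs1 was at 282 and 271 CPM in WT and 56.6 and 51.1 CPM in NKO (-2.36 ± 0.13; adjusted p = 2.18e-10, edgeR), close to the WT_Veh libraries. Sqle was at 58.6 and 58.5 CPM in WT and 12.2 and 11.7 CPM in NKO (-2.29 ± 0.13), below WT_Veh. Msmo1, the sterol methyl oxidase, was at 154 and 146 CPM in WT and 26.2 and 27.9 CPM in NKO (-2.47 ± 0.08), the largest decrease of the members. In all 3 genes both NKO libraries were below both WT libraries.

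In NKO_KLA, Idi1 was at 1.203 and 2.00 CPM (-1.73 ± 0.36), Cyp51 at 44.8 and 41.3 CPM (-1.82 ± 0.12), Insig1 at 71.9 and 77.9 CPM (-1.02 ± 0.11) and Stard4 at 9.88 and 8.57 CPM (-2.10 ± 0.13). Of these, Stard4 was below its WT_Veh level and the others above theirs. Fasn was at 37.1 and 36.5 CPM (-1.43 ± 0.15) and Elovl6 at 0.945 and 1.33 CPM (-1.68 ± 0.40). Srebf2 (282 and 265 CPM, -0.32 ± 0.11) and Acaca (14.1 and 15.8 CPM, 0.17 ± 0.18) did not pass. Higher in NKO were Tm7sf2 (2.36 ± 0.26), Ebp, a sterol isomerase (0.99 ± 0.11), Fads1 at 30.5 and 30.9 CPM (0.98 ± 0.13) and Mvk (0.67 ± 0.17). Vps51, which overlaps Tm7sf2, was at 50.8 to 57.2 CPM in WT_KLA and about 104 CPM in NKO_KLA.

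Because NKO_KLA is far in date from its control, it was also set against the KLA control libraries of each table in a joint fit of 10864 genes, of which 30 were members. All these comparisons share the NKO_KLA libraries. Members called lower were 17 with WT_KLA as the control, 16 with KLA of the RGFP966 table, 17 with Pgc1b flox/flox and 20 with DMSO. All genes called lower were 22.9%, 23.9%, 21.1% and 22.5%. Hmgcs1 was at -2.41, -2.43, -2.16 and -2.42 and Msmo1 at -2.53, -2.42, -2.42 and -2.42 in log2 fold change against these controls. Fads1 was at 0.93, 1.61, 0.65 and 0.65. Of these control groups, Pgc1b flox/flox carried Y-linked counts as NKO_KLA did. Genotype and date still cannot be told apart in any of them.

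Whether NKO changed a response was tested as an interaction. With KLA, 25 of 31 members were called, against 36.9% of all genes, 4 of them positive, Tm7sf2 (2.18 ± 0.34) the largest of these, and 21 negative, Sqle (-3.49 ± 0.16) the largest. With RANKL, 9 of 31 were called, against 14.2%, among them Pmvk, a mevalonate pathway kinase (1.02 ± 0.22), and Acaca on the negative side (-0.68 ± 0.23). In a fit of only the compared groups 4 were called, and 5 without WT_Veh replicate 2 or NKO_RANKL replicate 2. With IL4, 1 of 31 was called, against 0.604%, Stard4 (0.62 ± 0.14). With PolyIC 0 of 31 were called, against 3.24%, and with IFNb 0 of 31, against 0.604%. For these, edgeR's unadjusted p was below 0.05 for 4 and 1 members, and DESeq2 called 0 in both.

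**Figure D4:**
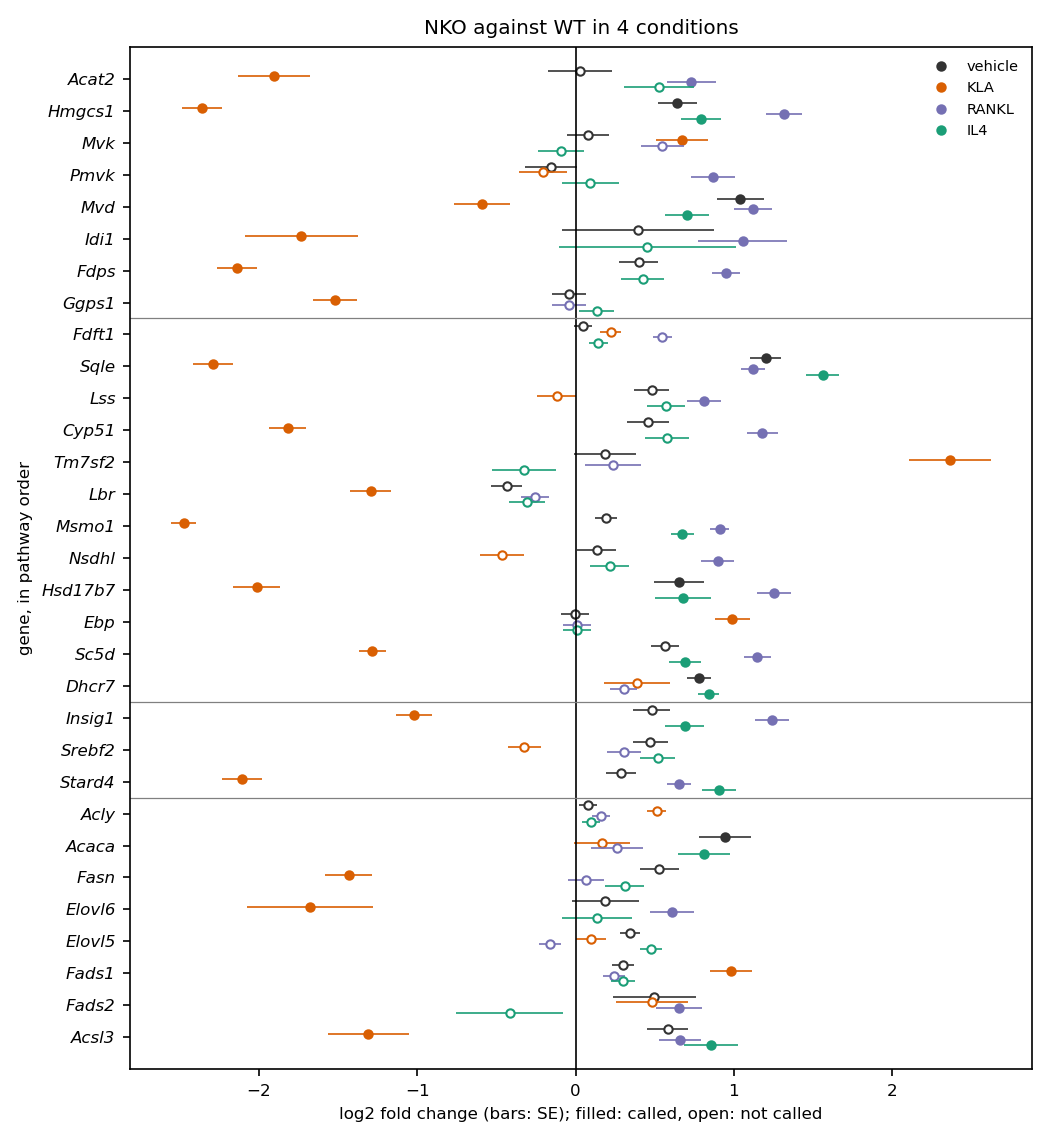
Log2 fold changes of the 31 members in NKO against WT with vehicle, KLA, RANKL and IL4, with SE as bars and filled points for calls. With KLA 17 members are called left of 0, whereas with vehicle, RANKL and IL4 every call lies right of 0.

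The effect of inhibiting HDAC3 was asked by adding RGFP966 to KLA. Of 31 members 7 were higher, against 15.8% of all genes, and 1 lower, against 9.54%; with DESeq2 size factors the calls were 5 and 3, and with DESeq2's test 4 and 3. Acsl3 (0.74 ± 0.16), Fads2 (0.74 ± 0.30) and Dhcr7 (0.68 ± 0.22) rose most, and Tm7sf2 fell (-1.01 ± 0.31). Fads1 rose to 12.8 and 13.1 CPM from 9.75 and 6.51 CPM (0.68 ± 0.15), which is far under its vehicle level of 92.3 and 88.1 CPM. Hmgcs1 was at 216 and 219 CPM against 223 and 240.2 CPM (-0.09 ± 0.06), Cyp51 at 128 and 126 against 125 and 142 CPM (-0.07 ± 0.07) and Insig1 at 80.5 and 80.6 against 104 and 106 CPM (-0.39 ± 0.07), and none passed. Without the first KLA library 5 members were called. The second RGFP966_KLA library is dated 14 days after the rest of its table, and 5 of 8 proliferation markers were lower with RGFP966, parts that were not tested.

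In the Pgc1b table, LysMCre made no called difference with vehicle, where 0 of 31 members passed, against 0.303% of all genes. Unadjusted p from edgeR was below 0.05 for 2 members, and DESeq2 called 0. With KLA, 5 of 31 members were higher in the LysMCre cells, against 13.2% of all genes, and 2 of 31 lower, against 12.9%. Both counts were near or below the share of all genes. With total gene counts the calls were 8 and 0. The higher members were Fads1, Elovl6, Dhcr7, Elovl5 and Fads2. Fads1 was at 18.6 and 19.1 CPM in flox/flox and 54.1 and 57.8 CPM in LysMCre cells (1.57 ± 0.11; adjusted p = 1.03e-14, edgeR). Elovl6 was at 2.19 and 2.14 CPM in flox/flox and 4.66 and 6.33 CPM in LysMCre cells (1.34 ± 0.31), and Dhcr7 at 6.04 and 6.66 CPM and 14.7 and 13.2 CPM (1.14 ± 0.20). These genes had fallen with KLA, and in LysMCre cells they lay between the KLA and vehicle levels of the controls, whose vehicle libraries held 131 and 125 CPM of Fads1, 13.1 and 14.4 CPM of Elovl6 and 35.1 and 43.6 CPM of Dhcr7. How many of all genes lay between these levels was not counted. Elovl5 (0.98 ± 0.10) and Fads2 (0.81 ± 0.20) were also higher. Lss, lanosterol synthase, and Pmvk were lower (-0.78 ± 0.13 and -0.78 ± 0.21). Hmgcs1 (-0.27 ± 0.07) and Cyp51 (-0.15 ± 0.09) did not pass. As an interaction with KLA, 7 of 31 members were called, against 22.8% of all genes. In the same libraries 6 of 8 proliferation markers were higher (median 1.70), and their part was not tested.

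Inhibition of TBK1 was compared with DMSO in the presence of KLA. Of 31 members 4 were higher, against 15% of all genes, and 7 lower, against 18.3%; with total gene counts the calls were 8 and 1. Fads2 was at 8.73 and 7.98 CPM with DMSO and 1.70 and 3.05 CPM with the inhibitor (-1.83 ± 0.28; adjusted p = 1.7e-10, edgeR), where the vehicle libraries held 2.53 and 3.51 CPM. Pmvk (-0.90 ± 0.18) and Nsdhl, a sterol dehydrogenase (-0.79 ± 0.13), were lower too. Elovl6 was higher at 5.01 and 6.09 against 3.43 and 2.08 CPM (1.00 ± 0.29), as were Stard4 at 76.1 and 69.9 against 43.4 and 42.5 CPM (0.77 ± 0.08) and Elovl5 (0.67 ± 0.09). Hmgcs1 was at 257 and 254 against 279 and 271 CPM (-0.10 ± 0.05) and Srebf2 at 424 and 428 against 451 and 427 CPM (-0.04 ± 0.04), and neither was called. The proliferation markers summed to 498 to 501 CPM with the inhibitor and 271 to 287 CPM with DMSO, and their part was not tested.

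**Figure D5:**
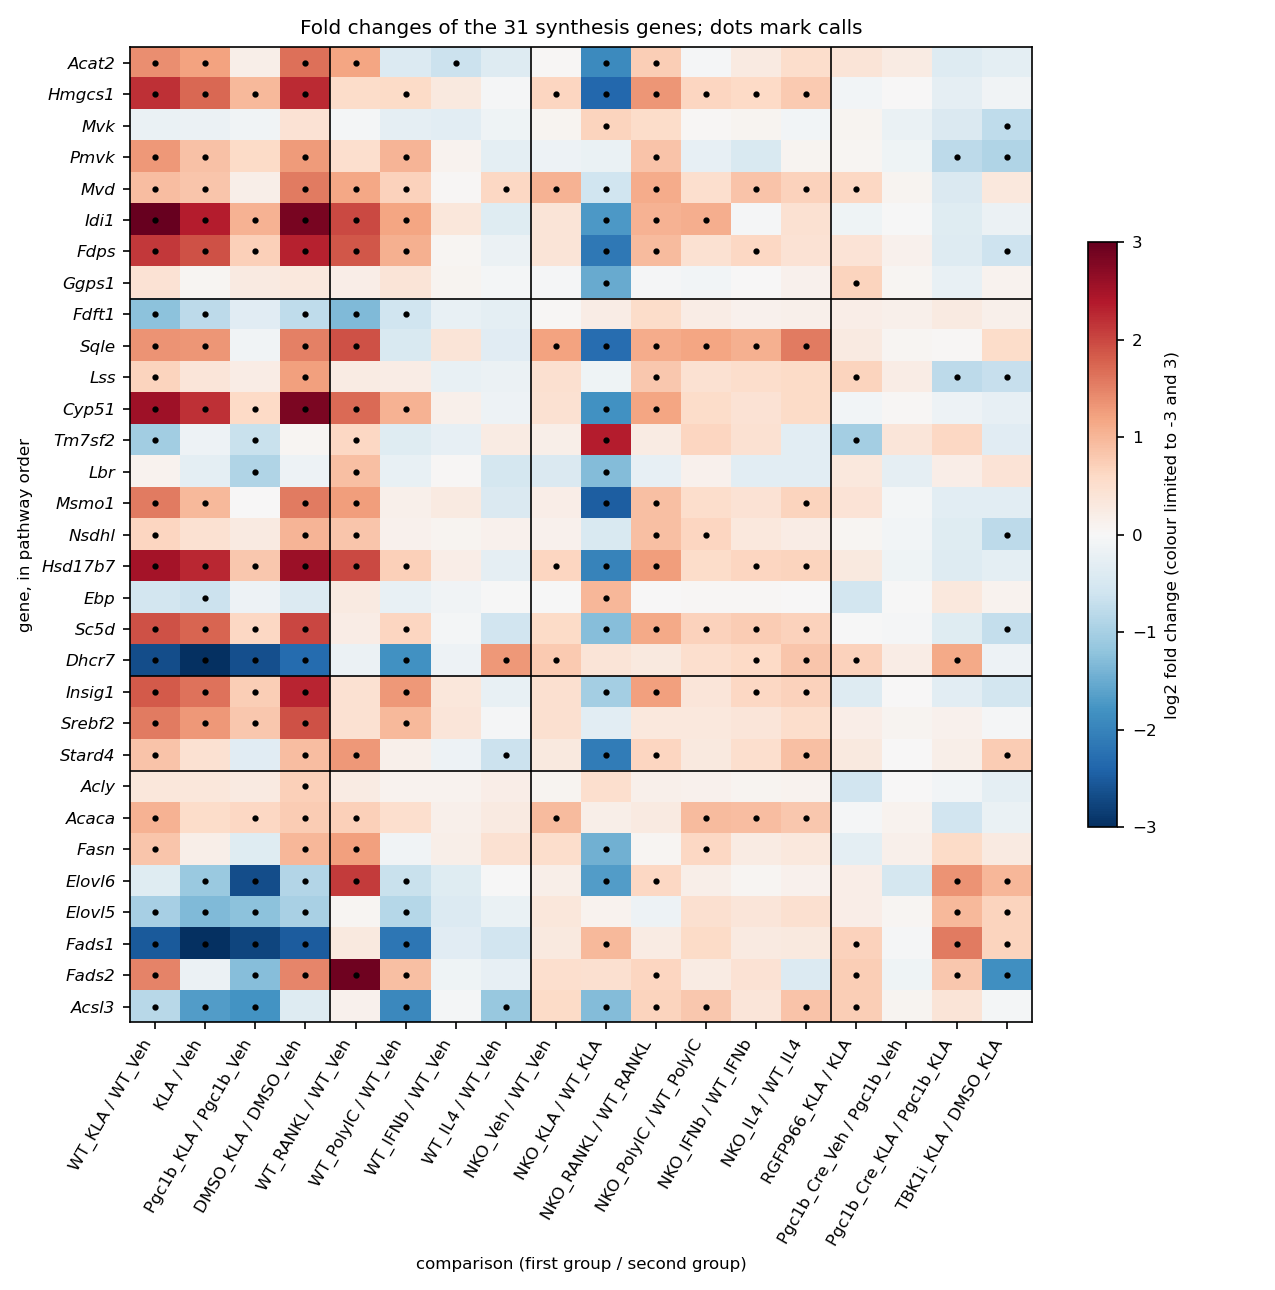
Log2 fold changes of the 31 members, as rows in pathway order, in 18 comparisons, with red for higher in the first group, blue for lower and dots for calls. The KLA columns are red for most mevalonate and sterol genes and blue for Dhcr7 and Fads1, and the NKO_KLA column is blue for Hmgcs1, Sqle and Hsd17b7, where the other NKO columns are red; with total gene counts several light red KLA cells (among them Lss at -0.0497) turn below 0.

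Neighbouring genes of the pathway, from lists written for this purpose, gave the setting. Of 15 tested genes of sterol uptake, storage and SREBP control, 8 rose and 4 fell with KLA in WT cells, against 25.4% and 32.3% of all genes. Of these, Srebf1, which encodes SREBP1, rose with KLA in WT (0.86 ± 0.07) and with PolyIC (2.10 ± 0.06), and was -0.06 ± 0.07 with RANKL and 0.92 ± 0.06 in NKO_KLA against WT_KLA. Ch25h, which makes the SREBP-blocking 25-hydroxycholesterol, had means of 0.308 CPM in WT_Veh, 49.6 CPM in WT_KLA, 58.3 CPM in WT_PolyIC and 335 CPM in NKO_KLA. Of 15 further fatty acid genes, 10 were higher and 1 was lower in WT_RANKL than in WT_Veh, against 24.1% and 19.8% of all genes. Scd1 and Scd2, stearoyl-CoA desaturases, were higher in NKO with vehicle (3.97 ± 0.15 and 2.76 ± 0.12), and not called with KLA (0.58 ± 0.24 and -0.32 ± 0.17). Of 7 genes of LXR and sterol export, 3 were higher in NKO with vehicle and 0 lower, against 2.4% and 3.8% of all genes, Abca1, the cholesterol exporter, with a log2 fold change of 1.16 ± 0.08. In NKO_KLA against WT_KLA, 2 of the 7 were higher and 2 lower, against 21% and 19% of all genes, with Abca1 at -0.92 ± 0.09. The summed mean of the list, which weighs its most abundant genes most, was 2090.0 CPM in WT_KLA and 6970.4 CPM in NKO_KLA. In the KLA controls of the other tables, scaled separately, it was 3760 CPM (RGFP966), 2002 CPM (Pgc1b flox/flox) and 3289 CPM (DMSO).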

How the data were processed

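Reads of 44 BMDM libraries were aligned by the authors with STAR to mm10 and counted over exons with HOMER, with 1 transcript kept per gene. The deposited values are raw counts in 4 tables. The study's methods describe strand-specific counting, but the headers name no strand option. Each table was fitted with edgeR 4.0.16 in R 4.3.3 (filterByExpr, TMM, robust quasi-likelihood F-test, all groups in 1 fit), with Benjamini-Hochberg adjustment over all genes tested. A call needed an adjusted p under 0.05 and a fold change over 1.5. SE are those the F statistic implies. The self-test on simulated counts of NKO_Veh against WT_Veh called 99 of 100 genes changed 2-fold and 2 of 12599 unchanged genes. The simulation gave all genes the same spread and changed no gene with low counts, so it does not cover members such as Idi1. DESeq2 1.42.0, other scalings and filters, no fold threshold and leaving out each library were alternatives. Libraries held 8323493 to 16783155 counts in genes, and no replicate pair agreed within sampling noise. Comparisons were 19 of 2 groups and 6 interactions. Members and lists were chosen with earlier results of these data known. Named were 11 members covering each role, the 3 called members with the largest change in each direction, 6 context genes, of which 1 is not reported here, and genes that check labels; other members, and genes that overlap or resemble members, were named after their values were seen.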

Additional observations from a re-analysis of the deposited data

Results flagged for a closer look

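The response to KLA differed between NKO and WT by the interaction test (edgeR) in 25 of 31 members, against 36.9% of all genes. Terms were -3.49 for Sqle, -3.002 for Hmgcs1, -2.67 for Msmo1, 2.18 for Tm7sf2, 0.99 for Ebp and 0.68 for Fads1 on the log2 scale. The NKO_KLA libraries differ from the others in date and sex, and these cannot be told apart from the genotype.

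The response to RANKL differed in 9 of 31 members, against 14.2% of all genes. Terms were 1.02 for Pmvk, 0.76 for Nsdhl, 0.76 for Insig1, 0.72 for Cyp51, 0.72 for Msmo1, 0.70 for Acat2, 0.67 for Hmgcs1, 0.60 for Hsd17b7 and -0.68 for Acaca. The count was 4 in a fit of only the compared groups and 5 without WT_Veh replicate 2 or NKO_RANKL replicate 2. The response to IL4 differed in 1 of 31 members, Stard4, by 0.62, against 0.604% of all genes called.

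In the Pgc1b table the response to KLA differed with LysMCre in 7 of 31 members, against 22.8% of all genes, so members were called about as often as other genes. Terms were 1.87 for Elovl6, 1.60 for Fads1, 0.94 for Fads2, 0.92 for Elovl5, 0.91 for Dhcr7, -0.68 for Acaca and -1.01 for Lss. Counts over the whole targeted gene were not lower in these cells, and they did not check the deletion.

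Fads2 moved with KLA by 1.50 in WT cells and 1.47 in DMSO cells but by -1.28 in Pgc1b flox/flox cells. The difference between these sets, which lie in separate tables, was not tested.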

How the results depend on the processing

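Of the member counts, 25 of 25 stayed within 1.5 times the main count with DESeq2 and with its size factors. Without the fold threshold, the members called were 26 for WT_RANKL, 8 for WT_IFNb and 13 for WT_IL4 against WT_Veh, 19 for PolyIC against IFNb, 19, 20, 17 and 17 for NKO against WT with vehicle, PolyIC, IFNb and IL4, 20 for RGFP966, 19 for LysMCre with KLA in the Pgc1b table, 21 for the TBK1 inhibitor, and 15, 2, 2 and 12 for the interactions of NKO with RANKL, PolyIC and IL4 and of Pgc1b Cre with KLA. With total gene counts they were 4 for NKO with IFNb and 1 for the interaction of NKO and PolyIC, and 14 higher for NKO with RANKL and 11 higher for NKO with IL4. In a fit of only the compared groups, 4 were called for the interaction of NKO and RANKL. The causes were not tested.

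Total gene counts also reversed the sign of log2 fold changes with KLA, to -0.0786 for Nsdhl, -0.0497 for Lss and -0.618 for Lbr in WT cells, -0.714 for Ggps1 and -0.592 for Fasn in the RGFP966 table, -0.0817 for Acaca, -0.103 for Cyp51, -0.693 for Msmo1 and -0.0640 for Sc5d in Pgc1b flox/flox cells, and -0.0250 for Acaca, -0.0706 for Acly and -0.713 for Tm7sf2 in DMSO cells, and with PolyIC to -0.0588 for Hmgcs1 and -0.00791 for Sc5d.

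When each library was left out in turn, counts of members ran from 11 to 17 for WT_PolyIC (11 without WT_Veh replicate 1), were 0 in all cases for WT_IFNb, and ran from 4 to 13 for NKO with vehicle (4 without WT_Veh replicate 1, 13 without WT_Veh replicate 2). They ran from 5 to 8 for RGFP966 (5 without KLA replicate 1), 5 to 11 for the interaction of NKO and RANKL (5 without WT_Veh replicate 2 or NKO_RANKL replicate 2), 0 to 1 for that with PolyIC and 0 to 2 for that with IL4 (0 without NKO_Veh replicate 1).

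Deviations of same-numbered libraries correlated at -0.06 to 0.06, so the numbers do not pair them. With the replicate block, 25 of 25 counts stayed within 1.5 times, for example 25 members for WT_KLA against WT_Veh. With 2 libraries a group, small changes of low genes such as Idi1 are limited by counting error.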
